A study of Rattus norvegicus with 34 samples.

Results

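Triadimefon at 1800 ppm in the diet (T1800) was compared with a diet without fungicide (Control, 0 ppm) by gene expression in whole testis of Wistar Han rats. The members were the arrays whose labels name these groups: 4 T1800 arrays (replicates 02 to 05) and 6 Control arrays (replicates 02 to 07), 10 of the 31 arrays with values. Exposure in the T1800 group ran from gestation day 6 to postnatal day 92, the day on which the testes were taken, so it began before birth. All animals were unmodified males of 1 strain, each array held RNA of 1 animal, and no source used here gave the litters. The series also held 4 arrays of triadimefon at 500 ppm (T500), used below as the other dose of the same compound, and arrays of myclobutanil and propiconazole, which entered the fit and are set beside them for a few genes. Control replicate 01 and T1800 replicate 01 were not analysed here.

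Triadimefon is a triazole fungicide. Triazoles block the fungal sterol demethylase, a cytochrome P450 of the CYP51 family, and can bind other P450 enzymes of the host, among them those that make steroids and those that clear retinoic acid and drugs. In the testis, androgens are made from cholesterol by Leydig cells, which lie in the interstitium with macrophages, fibroblasts, vessels and nerves. Sperm form in the tubules among Sertoli cells, and a layer of peritubular cells surrounds each tubule. In such bulk samples, fewer cells of a type and less RNA per cell cannot be told apart.

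Values are scores that behave like logarithms of unknown base, 1 for each probe set, and were brought to a common spread by quantile normalization. Differences are therefore in score units, T1800 minus Control, and are not folds. The tissue label was checked by markers: the spermatid gene Prm2, a protamine that packs sperm DNA, measured 3.70, 3.69, 3.72 and 3.73 in T1800 and 3.41 to 3.65 in Control. The mean of 22 spermatid genes was 3.33 to 3.35 in T1800 and 3.12 to 3.35 in Control.

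Control replicates 02 and 06 stood apart from the other 8 arrays. The actin gap, the score of the 3′ minus the 5′ beta-actin control probe set, grows where RNA is degraded or copied incompletely. It was 1.67 and 1.63 in these arrays, 0.859 ± 0.0209 (SD, n = 4) in the other Control arrays and 0.852 ± 0.0529 (n = 4) in T1800. Over all 6 Control arrays it was 1.12 ± 0.408, and the difference from T1800 did not pass an exact two-sided permutation test (p = 0.281 over 210 assignments of the arrays). The median correlation of these arrays with the other 9 was 0.958 and 0.963, against 0.994 to 0.997 in the rest. Many differences below are given with and without them, but a gene given without a second value can rest on them too. The epoxide hydrolase gene Ephx1, for example, measured 1.45 in each of them and 1.69 to 1.76 in the other Control arrays. The liver gene Alb, which encodes albumin, lay between 0.00419 and 0.714 in T1800 and between 0.132 and 1.65 in Control, and its part in the results was not tested.

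The stretch of 250 bases before the annotated start is shown for the genes with the clearest differences, Arhgef28 and S100b on the higher side and Macroh2a2 on the lower, because the results turn on these genes. The sequences are from RefSeq (build GRCr8), read 5′ to 3′ on the gene's strand, which is the minus strand for each. They lie at chr2:31294472-31294721 for Arhgef28, at chr20:12381082-12381331 for S100b and at chr20:30270653-30270902 for Macroh2a2. Capitals mark matches, on either strand, to a GC box (GGGCGG) or a CCAAT box (CCAAT).
Arhgef28: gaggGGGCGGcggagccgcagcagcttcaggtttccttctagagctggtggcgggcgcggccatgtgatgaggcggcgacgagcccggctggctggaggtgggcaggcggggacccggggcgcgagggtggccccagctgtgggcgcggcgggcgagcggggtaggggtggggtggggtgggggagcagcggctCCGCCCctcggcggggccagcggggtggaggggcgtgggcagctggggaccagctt
S100b: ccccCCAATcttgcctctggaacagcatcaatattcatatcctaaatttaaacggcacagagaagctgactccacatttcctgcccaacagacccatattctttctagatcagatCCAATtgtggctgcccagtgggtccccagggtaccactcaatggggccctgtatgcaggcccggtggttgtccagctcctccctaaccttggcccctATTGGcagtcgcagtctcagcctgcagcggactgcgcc
Macroh2a2: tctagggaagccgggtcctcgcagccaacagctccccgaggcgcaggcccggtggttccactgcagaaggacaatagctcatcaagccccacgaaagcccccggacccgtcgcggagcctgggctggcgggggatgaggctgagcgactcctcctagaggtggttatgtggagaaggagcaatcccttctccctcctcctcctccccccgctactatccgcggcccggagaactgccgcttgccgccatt
The Arhgef28 stretch held 2 GC boxes and no CCAAT box, the S100b stretch 3 CCAAT boxes and no GC box, and the Macroh2a2 stretch neither. Over 33469 annotated starts, 30.5% of such stretches held a GC box and 34.0% a CCAAT box. The other motifs searched were a TATA box (TATAAA, in 12.9% of stretches), an AP-1 site (TGACTCA, 4.05%), a cAMP response element (TGACGTCA, 1.59%), an SF-1 site (CAAGGTCA, 1.33%) and an androgen receptor core motif (AGAACA, 17.5%). None of these letters occurred in the 3 stretches, and a match or its absence is only a description of the sequence.

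In T1800, 2 genes rose by limma with Benjamini-Hochberg adjustment over all 31042 probe sets, and none fell. The 2 higher calls were 0.00644% of the probe sets tested and the lower calls 0%. An unadjusted p under 0.05 was reached by 1814 probe sets, 1085 higher and 729 lower, where 1552 would be reached by chance. The lowest adjusted p on the lower side was 0.105.

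Arhgef28 encodes a guanine nucleotide exchange factor that also binds neurofilament RNA. It measured 0.816, 0.521, 0.950 and 0.718 in the T1800 arrays, and in Control its lowest, median and highest scores were 0.188, 0.335 and 0.388. Every T1800 array lay above every Control array, and the spread within T1800 was wider than in Control. The means were 0.751 ± 0.181 (SD, n = 4) and 0.308 ± 0.0768 (n = 6), a difference of 0.44 (SE 0.074, limma adjusted p = 0.033). Of the 10 arrays, 1 T1800 array exceeded bioB, the hybridisation control of lowest concentration, so the gene was measured below that control in the rest. Between 7.63% and 18.6% of probe sets exceeded bioB in these arrays. A second probe set for Arhgef28 measured -0.0317 and -0.0323 in the 2 groups, a difference of 0.00064, and did not show the change.

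S100b encodes a calcium-binding protein that is abundant in Schwann cells and other glia and is also found in adipocytes and in Leydig cells. It measured 0.518, 0.368, 0.544 and 0.398 in T1800, and 0.152, 0.200 and 0.259 as the lowest, median and highest Control scores. Every T1800 array again lay above every Control array. The means were 0.457 ± 0.0870 (n = 4) and 0.205 ± 0.0413 (n = 6), a difference of 0.25 (SE 0.042, limma adjusted p = 0.033), with no array above bioB. Replicates 02 and 04 were the highest T1800 arrays for both genes. Many genes named below also had no array above bioB. Among them were Macroh2a2, Cyp2g1, Acvr1, C1qa, Cfd, Lum, Gpx3, Perp, Hyi, Prim1, Pon2 and Kcna4.

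Without Control replicates 02 and 06 the differences were 0.447 for Arhgef28 and 0.231 for S100b, but neither passed (limma adjusted p = 0.20 and 0.29). Leaving out T1800 replicate 02 also ended both calls (differences 0.42 and 0.23, each at an adjusted p of 0.42), as did leaving out T1800 replicate 04 (0.38 and 0.22, each at 0.58). The scores as deposited (adjusted p = 0.20 and 0.051) and the actin gap as a covariate (0.076 for each) ended them too, with differences of 0.43 and 0.24, and 0.45 and 0.23. Leaving out Control replicate 02, 04, 05 or 06 alone ended both calls as well.

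The animal numbers in the labels fall in an earlier and a later series, with 3 Control arrays in each and 1 T1800 array (replicate 02) in the earlier and 3 in the later. With the animal series as a block S100b passed (difference 0.26, limma adjusted p = 0.036), Arhgef28 did not (0.43, 0.074), and the other call was Cyp2g1. Within the later series (3 T1800 and 3 Control arrays) the differences were 0.37 for Arhgef28 and 0.24 for S100b, each at a limma adjusted p of 0.82. The earlier series, with 1 T1800 array, gave no value of its own. Without T1800 replicate 05 S100b passed (0.27, adjusted p = 0.030) and Arhgef28 did not (0.45, 0.068).

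**Figure D1:**
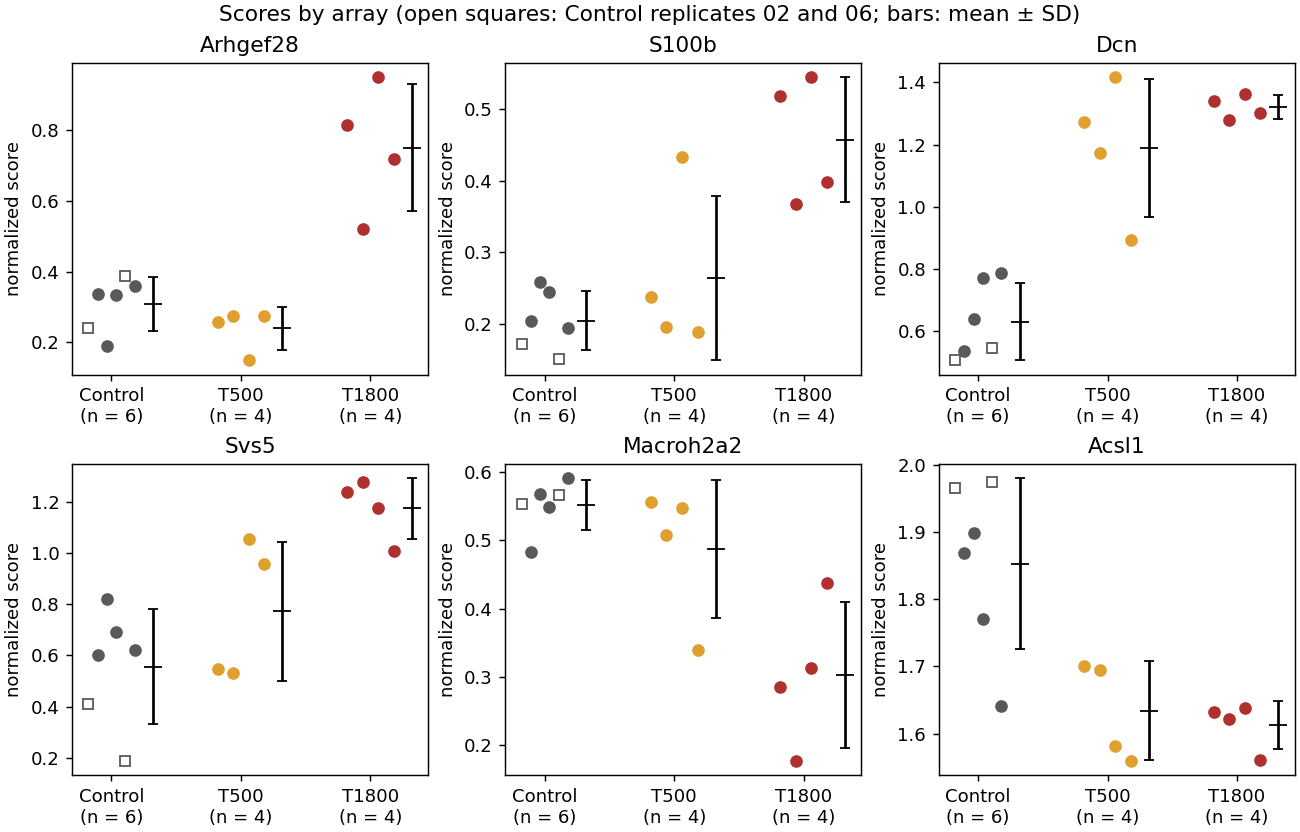
Normalized scores (y axis) of 6 genes in each array of Control (n = 6), T500 (n = 4) and T1800 (n = 4), with the group mean ± SD beside the points and Control replicates 02 and 06 as open squares. Arhgef28, S100b, Dcn and Svs5 lie higher in all 4 T1800 arrays than in any Control array, Macroh2a2 and Acsl1 lower; only Arhgef28 and S100b passed the test against Control.

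The relatives of S100b were described as a list. Of 13 measured S100 genes, 13 were higher in T1800, with a median difference of 0.044 beside -0.00105 over 14217 genes, of which 49.0% were higher. None of the 13 lay above bioB in all T1800 arrays or in all Control arrays. In 3 of the 13, every T1800 array lay above every Control array: S100b, S100a10 and S100a4. Over all 14217 genes that share was 1.62%, and the reverse, every T1800 array below, held for 0.999%. These shares belong beside each count without overlap below that uses all Control arrays. S100a10, a partner of annexin A2 at the membrane, measured 0.482, 0.475, 0.467 and 0.476 in T1800 and 0.134, 0.398 and 0.413 (lowest, median, highest) in Control. S100a6 measured 0.385, 0.344, 0.398 and 0.477 against -0.118, 0.175 and 0.372, so that its groups overlapped. Its difference of 0.27 became 0.15 without Control replicates 02 and 06, and the median of the 13 genes became 0.025. The scores of S100a6 in those arrays, -0.118 and -0.0869, were the lowest of all.

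Of 14 Schwann cell and nerve markers, 9 were higher, with a median difference of 0.0083, and S100b was the only one whose groups did not overlap.

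Genes of the extracellular matrix, made mainly by fibroblasts and peritubular cells, held several of the wider differences on the higher side, though no single one passed the test. Decorin, Dcn, a proteoglycan that organizes collagen fibrils, measured 1.34, 1.28, 1.36 and 1.30 in T1800. Its lowest, median and highest Control scores were 0.504, 0.590 and 0.787, well below every T1800 array. The means were 1.32 ± 0.0380 (n = 4) and 0.629 ± 0.124 (n = 6), a difference of 0.69 (SE 0.16, limma adjusted p = 0.32) and the highest over all probe sets. The difference was 0.64 without Control replicates 02 and 06.

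Of the fibrillar collagens, Col1a1, Col1a2 and Col3a1 were likewise higher in every T1800 array than in any Control array, by the probe set of highest mean. Col1a1, a chain of type I collagen, measured 0.919, 1.16, 0.967 and 1.33 in T1800 and 0.545, 0.651 and 0.755 (lowest, median, highest) in Control, and its second probe set differed by 0.33, also without overlap. Col3a1, type III collagen, measured 0.904, 1.04, 0.847 and 1.18 against 0.282, 0.533 and 0.708. Replicates 03 and 05 were the highest T1800 arrays for both genes, unlike for Arhgef28. Col1a2 had a difference of 0.37 by the probe set of highest mean and of 0.29 by its second, whose groups overlapped.

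Of 17 collagens, 14 were higher, 4 of them without overlap (Col1a1, Col1a2, Col3a1 and Col6a2), with a median difference of 0.025. The lower end held Col16a1, Col5a2 and Col5a3, which lay within 0.05 of Control. Of 10 small leucine-rich proteoglycans, 8 were higher and 3 did not overlap: Dcn, lumican Lum (0.0196 ± 0.0515 against -0.297 ± 0.152) and fibromodulin Fmod (0.754 ± 0.0604 against 0.635 ± 0.0506). Their median difference was 0.078. Of 29 matrix glycoproteins and remodelling genes, 21 were higher, 3 without overlap, with a median of 0.037. Those 3 were Serpinh1, a chaperone of collagen (0.397 ± 0.0352 against 0.218 ± 0.0831), Sparc, a collagen-binding glycoprotein (1.37 ± 0.0610 against 1.15 ± 0.133), and Mgp, an inhibitor of calcification (1.92 ± 0.0439 against 1.61 ± 0.319). Both probe sets of Sparc were without overlap, while the second probe sets of Col6a2 and Serpinh1 differed by 0.0044 and 0.021. The difference of Mgp was 0.32 with all Control arrays and 0.12 without replicates 02 and 06.

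Fibroblast markers, which share 5 genes with these lists, were higher in 13 of 16, with 7 without overlap and a median difference of 0.065. Among the other members, Mfap4 and S100a4 did not overlap, while Pdgfra, Fap and Thy1, which mark fibroblasts by surface receptors and enzymes, had differences of -0.093, -0.051 and -0.028. Without Control replicates 02 and 06 that of Pdgfra turned to 0.074, while those of Fap and Thy1 were -0.033 and -0.038. The mean score of the 16 markers was 0.602 to 0.615 in T1800 and 0.375 to 0.547 in Control. Without Control replicates 02 and 06 the median was 0.097, and 8 of the 16 were without overlap where 4.34% of all genes were so above and 3.54% below. The same count was 8 of 17 for collagens. Peritubular and smooth muscle markers had a median of 0.015, with 1 of 14 without overlap, the actin-binding Tagln (0.381 ± 0.0336 against 0.269 ± 0.0774).

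**Figure D2:**
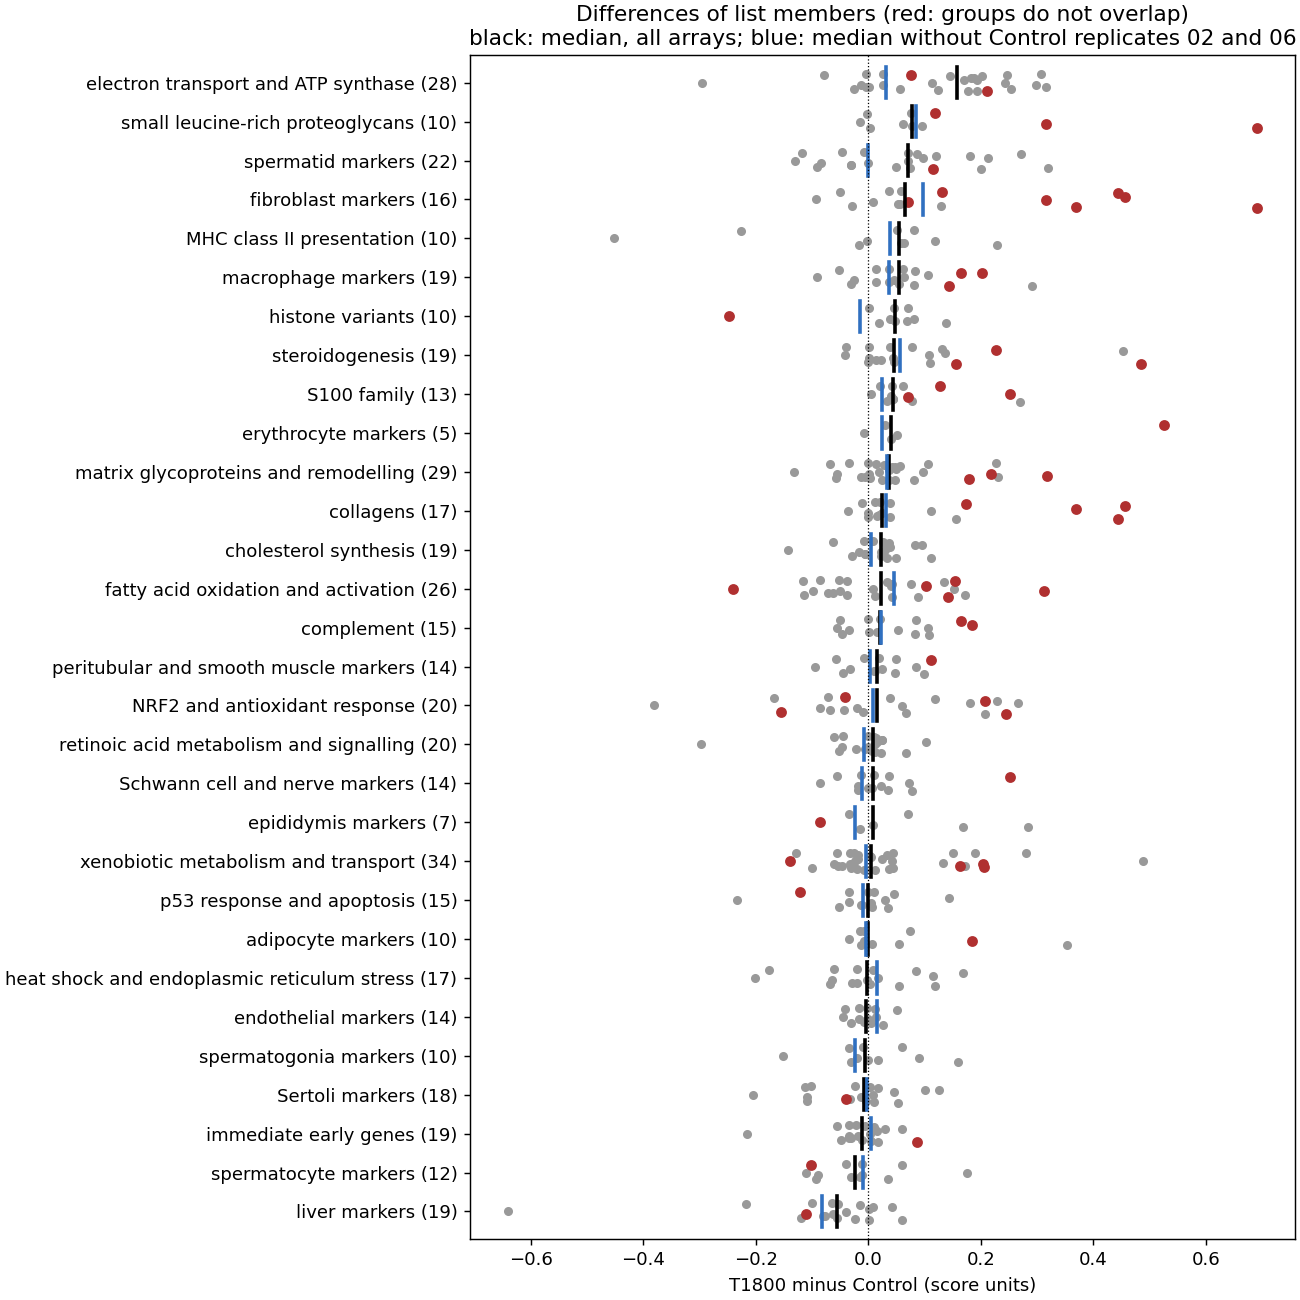
Difference between T1800 and Control (x axis, score units) for each member of 30 gene lists (rows, number of genes measured in brackets). Red points are members whose groups do not overlap; the black bar is the list's median over all arrays, the blue bar its median without Control replicates 02 and 06, and the dotted line the median of all genes (-0.00105). The electron transport median falls from 0.16 to 0.031 without those arrays, while the fibroblast median is 0.065 with them and 0.097 without.

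Macrophage genes were higher in 15 of 19, with 3 without overlap, beside 1.62% of all genes, and a median difference of 0.055. C1qa, a chain of the complement recognition molecule C1q, measured 0.257, 0.255, 0.267 and 0.194 in T1800 and -0.0192, 0.0879 and 0.116 (lowest, median, highest) in Control (difference 0.16, limma adjusted p = 0.20). The groups did not overlap, but its companion chains C1qb (difference 0.11) and C1qc (0.083) did. Lyz2, lysozyme, measured 1.07, 1.08, 1.07 and 1.005 against 0.660, 0.890 and 0.988, and the Fc receptor subunit Fcer1g 0.200 ± 0.0212 against 0.0561 ± 0.0949. The macrophage receptors Mrc1, Csf1r and Cd163 had differences of -0.090, -0.052 and -0.024, which were 0.044, -0.014 and 0.017 without Control replicates 02 and 06, so that Mrc1 and Cd163 changed sign. Without Control replicates 02 and 06 the differences of Lyz2, Fcer1g and C1qa were 0.12, 0.085 and 0.14 (0.20, 0.14 and 0.16 with them), and the list's median was 0.037.

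Of 10 genes of MHC class II presentation, 6 were higher and none was without overlap. Cd74, the invariant chain, had a difference of 0.23 and RT1-Bb one of -0.45. Complement genes were higher in 10 of 15, with a median of 0.021, and besides C1qa the gene Cfd, complement factor D, was without overlap (0.127 ± 0.0726 against -0.0572 ± 0.0501, adjusted p = 0.32). Endothelial markers had a median of -0.0038 and none of 14 without overlap.

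Leydig cell genes of steroid synthesis were higher in 17 of 19, with a median difference of 0.046. In 3 (Insl3, Tspo and Fdx1) the groups did not overlap, beside 1.62% of all genes. Of the genes that act in order on cholesterol, Tspo, a mitochondrial outer membrane protein tied to cholesterol handling, measured 0.997, 0.810, 1.05 and 0.833 in T1800 and 0.485, 0.737 and 0.770 in Control (lowest, median, highest; adjusted p = 0.53). Star, which carries cholesterol to the inner membrane, measured 0.697 ± 0.0780 against 0.589 ± 0.144, and its groups overlapped. Cyp11a1, the side-chain cleavage enzyme, had a difference of -0.040 and Hsd3b1, the next step to progesterone, one of 0.00079.

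Cyp17a1, the hydroxylase and lyase that leads to androgens, measured 2.00, 2.13, 2.03 and 1.85 in T1800 and 1.35, 1.54 and 1.89 in Control. Only Control replicate 04, at 1.89, reached into the T1800 range, and the difference was 0.45 (SE 0.14, adjusted p = 0.73), or 0.42 without Control replicates 02 and 06. Hsd17b3, which makes testosterone, measured 0.0744 ± 0.0546 against -0.00289 ± 0.0238. The genes for these successive steps thus differed in unlike amounts. The receptor for luteinizing hormone, Lhcgr, had a difference of -0.042.

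Insl3, a peptide hormone of mature Leydig cells, measured 1.57, 1.48, 1.61 and 1.43 in T1800. Control replicates 02 and 06 measured 0.518 and 0.465 and the remaining 4 lay at 1.20 to 1.35, so its difference of 0.48 was 0.21 without those arrays. Fdx1, the electron donor of mitochondrial P450 enzymes, likewise had a difference of 0.16 that became 0.051. Its second probe set differed by -0.055. The list's median was 0.057 without the 2 arrays, and 0.093 without T1800 replicate 05.

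The sterol demethylase gene Cyp51 itself measured 1.06, 1.12, 1.08 and 1.08 in T1800 and 1.08, 1.12 and 1.55 in Control. Its difference of -0.14 was -0.017 without Control replicates 02 and 06, which held the highest scores. Of 19 genes of cholesterol synthesis, 12 were higher, none was without overlap, and the median was 0.023. With the scores as deposited it was -0.014.

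Of 20 genes of retinoic acid metabolism and signalling, 12 were higher and none was without overlap. Cyp26b1, a P450 that degrades retinoic acid, measured 1.15, 1.19, 1.15 and 1.15 in T1800 and 1.17, 1.32 and 1.91 in Control. The difference of -0.30 (adjusted p = 0.77) was -0.12 without Control replicates 02 and 06, and a second probe set had 0.036. Of 34 genes of xenobiotic metabolism and transport, 18 were higher with a median of 0.0041. The drug-metabolizing P450 genes Cyp1a1 and Cyp3a23-3a1 had differences of 0.0050 and -0.033, and Por, the electron donor of microsomal P450 enzymes, 0.044. The members without overlap on the higher side were conjugating or hydrolysing enzymes: the sulfotransferase Sult1a1 (0.594, 0.422, 0.624 and 0.507 in T1800; 0.213 to 0.399 in Control), the glutathione transferase Gsta4 and the epoxide hydrolase Ephx1. The 1 member on the lower side was Cyp2c7, with a difference of -0.14. Over all genes 1.62% were without overlap above and 0.999% below.

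Cyp2g1, a P450 described mainly in olfactory mucosa, had the smallest p of the genes that did not pass on the higher side. It measured 0.442, 0.301, 0.479 and 0.459 in T1800 and 0.139, 0.209 and 0.336 in Control. Only T1800 replicate 03 fell within the Control range (difference 0.19, limma adjusted p = 0.105). Acvr1, a receptor for bone morphogenetic proteins, measured 0.0767, 0.0486, 0.109 and -0.136 in T1800 and -0.188, -0.148 and -0.115 in Control, with replicate 05 among the Control arrays (adjusted p = 0.105). Its other probe sets differed by -0.069, with overlap, and by 0.057, without. Tmem132c, a membrane protein, measured 0.392, 0.0978, 0.432 and 0.223 against -0.115, -0.00134 and 0.0479 (adjusted p = 0.105). Replicate 04 was the highest T1800 array for each of these genes, as for Arhgef28 and S100b.

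Svs5, a seminal vesicle secretion gene, measured 1.24, 1.28, 1.18 and 1.01 in T1800 and 0.188, 0.612 and 0.822 in Control. The groups did not overlap, with a difference of 0.62 (SE 0.12, adjusted p = 0.11), or 0.49 without Control replicates 02 and 06. Of 7 epididymis markers, 4 were higher and none was without overlap on the higher side, and they had a median of 0.0080. Tmem176a, a membrane protein found in immune cells (difference 0.37, adjusted p = 0.12), Mrps35, a mitochondrial ribosome subunit (0.13, 0.18), Prim1, a primase subunit of DNA replication (0.27, 0.21), the paraoxonase Pon2 (0.14, 0.28) and the hydroxypyruvate isomerase Hyi (0.11, 0.32) were also without overlap.

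On the lower side the smallest p was that of Macroh2a2, a macroH2A histone variant of silent chromatin. It measured 0.285, 0.177, 0.313 and 0.437 in T1800 and 0.483, 0.560 and 0.591 in Control. The groups did not overlap, the difference was -0.25 (SE 0.048, limma adjusted p = 0.105), and it was -0.24 without Control replicates 02 and 06. Its second probe set measured -0.432 and -0.461, a difference of 0.029, and its paralog Macroh2a1 had 0.071. Of 10 histone variants 9 were higher, with a median of 0.047 that was -0.015 without Control replicates 02 and 06. H1f2, a linker histone, measured 0.363 ± 0.0595 against 0.224 ± 0.142, with Control replicate 02 the highest of all at 0.509.

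Acsl1, which activates long-chain fatty acids as acyl-CoA, measured 1.63, 1.62, 1.64 and 1.56 in T1800 and 1.64, 1.88 and 1.98 in Control. The groups were separated by a narrow margin, and the difference was -0.24 (SE 0.052, adjusted p = 0.20). Its other probe sets had differences of -0.41 and -0.060. Perp, a membrane protein of the p53 response, measured -0.188 ± 0.0284 against -0.0669 ± 0.0554 (adjusted p = 0.20), and Hibadh, an enzyme of valine breakdown, 1.49 ± 0.126 against 1.75 ± 0.107 (adjusted p = 0.32). Noxred1 had the lowest difference of all probe sets, -0.72, but scattered from 1.52 to 2.56 in T1800 and from 2.52 to 3.11 in Control (adjusted p = 0.54). The potassium channel gene Kcna4, the ribokinase Rbks and the splicing factor Prpf18 were without overlap with differences of -0.063, -0.12 and -0.11. The second probe sets of Perp and Prpf18 differed by 0.0065 and -0.015. Myo18b, Fam228b, Ssbp2, Fbxl20, Tp63, Ptprn2 and Neb completed the 15 genes of smallest p on this side, with differences of -0.068 to -0.20 and overlapping groups.

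Later steps of fatty acid oxidation did not follow Acsl1. Of 26 genes of this pathway 15 were higher, with 4 without overlap above and 1, Acsl1, below. The shares over all genes were 1.62% and 0.999%, and the list's median was 0.023. Acadl, the long-chain acyl-CoA dehydrogenase, measured 1.29, 1.09, 1.35 and 1.16 in T1800 and 0.682, 0.973 and 1.07 in Control (adjusted p = 0.22). The others were Etfa and Etfb, subunits of the flavoprotein that takes electrons from the dehydrogenases (differences 0.15 and 0.10), and Hadh, the hydroxyacyl-CoA dehydrogenase (0.14). Without Control replicates 02 and 06 these 4 differences were 0.20, 0.082, 0.048 and 0.10, and the list's median was 0.046. With the scores as deposited that median was -0.010. A second probe set of Hadh differed by -0.0036.

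Of 28 genes of electron transport and ATP synthase, 22 were higher, with the highest median of any list, 0.16. Ndufb9, a subunit of complex I, measured 2.40, 2.40, 2.38 and 2.42 in T1800, whereas Control replicates 02 and 06 measured 2.09 and 1.74 and the remaining 4 lay at 2.29 to 2.37. The median without those 2 arrays was 0.031, and 3 of 28 were then without overlap above, beside 4.34% of all genes. Spermatid genes behaved in the same way: their median of 0.071 was -0.0012 without those arrays and -0.18 with the scores as deposited.

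Of 20 NRF2 and antioxidant genes 10 were higher, with 2 without overlap on each side, beside 1.62% of all genes above and 0.999% below. The glutathione peroxidase Gpx3 measured 0.219, 0.281, 0.158 and 0.309 in T1800 and -0.0435, 0.0556 and 0.0889 in Control (difference 0.21, adjusted p = 0.36), and Gpx1 0.881 ± 0.0608 against 0.636 ± 0.155. Without Control replicates 02 and 06 these differences were 0.17 and 0.16. Slc7a11, the cystine importer, measured 0.488, 0.593, 0.526 and 0.317 against 0.146, 0.250 and 0.339, and T1800 replicate 05 overlapped. Gsr, glutathione reductase, was lower without overlap by a small margin (-0.224 ± 0.0199 against -0.183 ± 0.0191). Gclm, a subunit of the enzyme that starts glutathione synthesis, was lower without overlap as well, with a difference of -0.15 that was -0.041 without Control replicates 02 and 06. The lists of heat shock and endoplasmic reticulum stress, immediate early genes and p53 response had medians of -0.0013, -0.012 and 0.00018, and 8 of 17, 8 of 19 and 8 of 15 members higher.

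**Figure D3:**
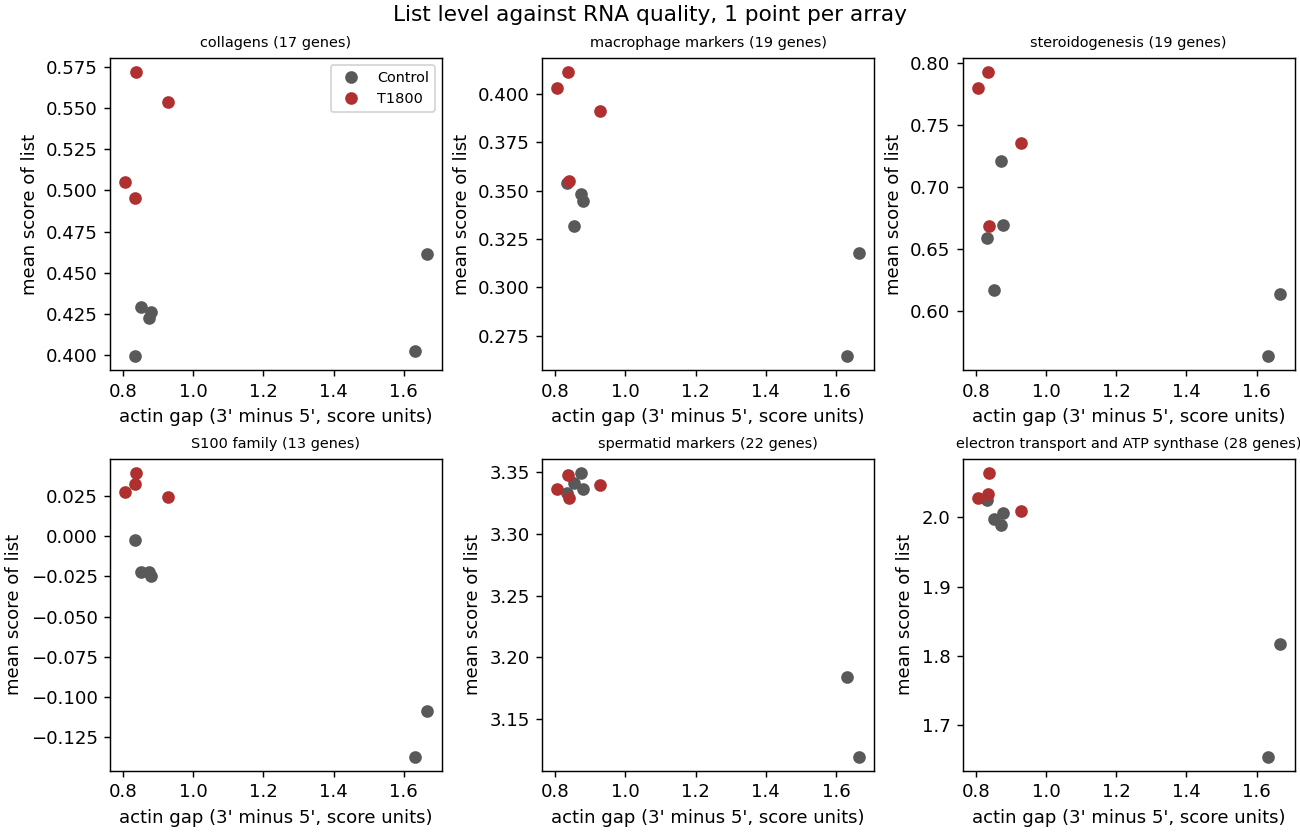
Mean score of 6 gene lists (y axes) against the actin gap (x axis, score units), with 1 point per array, Control in grey and T1800 in red. The 2 Control arrays of large gap, replicates 02 and 06, are the lowest for electron transport, spermatid and S100 genes, whereas for collagens replicate 02 is the highest Control array and all 4 T1800 arrays lie above all 6 Control arrays.

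Among lists for cells of the tubule, those of Sertoli cells, spermatogonia and spermatocytes had medians just below 0 after quantile normalization. The spermatid median, given above, was 0.071, or -0.0012 without Control replicates 02 and 06 and -0.18 with the scores as deposited. Sertoli markers had a median of -0.0083, with 8 of 18 higher, and Gata1, a Sertoli transcription factor, was lower without overlap (0.0384 ± 0.0198 against 0.0774 ± 0.0421), with Control replicate 02 the highest at 0.163. Spermatogonia markers had a median of -0.0053 and 4 of 10 higher. Spermatocyte markers had a median of -0.023 and 3 of 12 higher, and the meiotic cohesin Stag3 measured 2.38 ± 0.0294 against 2.48 ± 0.0579 without overlap. The spermatocyte median was -0.13 with the scores as deposited.

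Blood and fat were checked as other sources of RNA. Of 5 erythrocyte markers 4 were higher with a median of 0.040, and the globin gene Hbb, by a probe set that may also bind related globins, measured 1.65, 1.84, 1.55 and 1.60 in T1800 and 0.462, 1.29 and 1.44 in Control. Its difference of 0.53 was 0.31 without Control replicates 02 and 06. Of 10 adipocyte markers 5 were higher and 5 lower, and their median was -0.000044. The 1 member without overlap was Cfd, given above with complement, beside 1.62% of all genes. Cd36 was higher by 0.35 (limma adjusted p = 0.75), with overlap. The mean score of the 10 adipocyte markers was 0.122 to 0.142 in T1800 and 0.0282 to 0.125 in Control. Liver markers had a median of -0.055, with 5 of 19 higher, and their mean score was -0.0697 to 0.0174 in T1800 and -0.0694 to 0.234 in Control. The part of these cells in the differences was not tested.

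**Figure D4:**
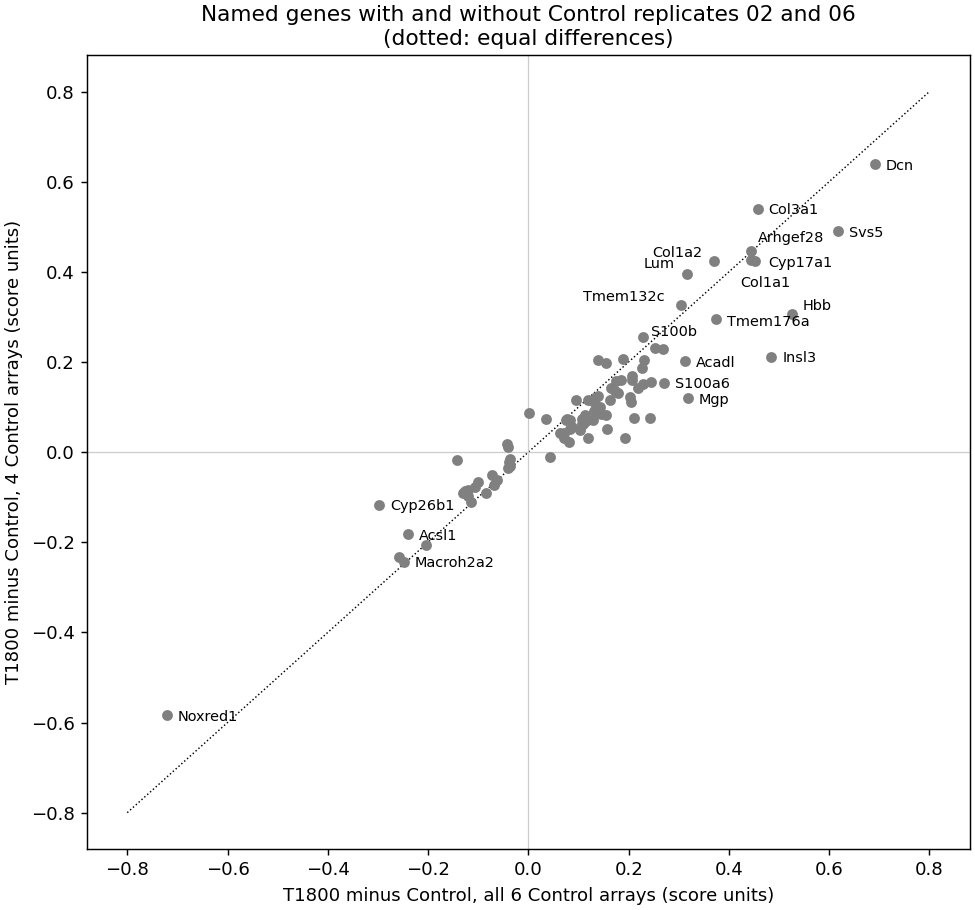
Difference of each named gene between T1800 and Control with all 6 Control arrays (x axis) and with 4, leaving out replicates 02 and 06 (y axis), both in score units; the dotted line marks equal differences. Dcn, Arhgef28, S100b, Col3a1 and Macroh2a2 lie near the line, while Insl3 (0.48 and 0.21), Mgp (0.32 and 0.12) and Cyp26b1 (-0.30 and -0.12) shrink.

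The 1800 ppm diet was also compared with the 500 ppm diet of the same compound. The difference in means uses no Control array, but the estimate of spread and the normalization were shared by all arrays, Control included. All 4 T500 arrays were of the earlier animal series and 3 of the 4 T1800 arrays of the later, so dose and series can hardly be told apart here. Only Arhgef28 passed: it was higher in T1800 by 0.51 (limma adjusted p = 0.028), 0.00322% of probe sets, and none was lower (0%), with 612 probe sets at an unadjusted p under 0.05. In T500 it measured 0.258, 0.275, 0.149 and 0.275, all within or below the Control range. The 1 T1800 array of the earlier series, replicate 02, measured 0.816. The call was lost without any 1 of the T500 arrays (limma adjusted p = 0.063, 0.10, 0.14 and 0.070 without replicates 01 to 04). It was lost as well without T1800 replicate 02 (0.25), 04 (0.34) or 05 (0.053), and it was kept without replicate 03 (0.0024). It was also lost with the scores as deposited (0.23), median and spread scaling (0.16), only the 2 groups (0.15), the replicate block (0.16) and the animal series as a block (0.78), an alternative chosen after seeing the data. Over all these alternatives the difference was 0.45 to 0.59.

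S100b measured 0.238, 0.196, 0.432 and 0.190 in T500, with replicate 03 inside the T1800 range, and its difference between doses was 0.19 (adjusted p = 0.77).

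The other genes of smallest p between the doses were Ssbp2, a DNA-binding cofactor (-0.19, adjusted p = 0.12), Lepr, the leptin receptor, and Gzmb, a granzyme, on the lower side (-0.084 and -0.13, adjusted p = 0.70), and Muc1, a mucin, and Acvr1 on the higher (0.22 and 0.16, adjusted p = 0.70). No matrix gene passed between the doses. Dcn was 1.19 ± 0.222 (SD, n = 4) in T500 and the difference 0.13, that of Col1a1 was 0.072 and that of Col3a1 0.047. Sparc was 1.17 ± 0.187 in T500 and Timp2, an inhibitor of matrix metalloproteinases, 1.98 ± 0.170, with differences of 0.20 and 0.15 (adjusted p = 0.9999 for each). Cyp17a1 was 2.00 in both groups, with a difference of 0.0052, and Acsl1 differed by -0.021. Macroh2a2 was 0.487 ± 0.101 in T500, and the difference of -0.18 did not pass (adjusted p = 0.9999). A p that misses the threshold in 4 against 4 arrays does not show that the doses act alike.

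Beside the triadimefon groups, Arhgef28 measured 0.707 ± 0.158 (n = 3) at 500 ppm and 0.249 ± 0.0403 (n = 5) at 2000 ppm of myclobutanil, and 0.480 ± 0.0982 (n = 4) at 500 ppm and 0.435 ± 0.170 (n = 5) at 2500 ppm of propiconazole. S100b lay between 0.213 and 0.294 in the means of those 4 groups, and Macroh2a2 between 0.491 and 0.577. Dcn measured 1.09 ± 0.379 at 500 ppm and 0.712 ± 0.362 at 2000 ppm of myclobutanil. With propiconazole it measured 0.550 ± 0.132 at 500 ppm and 0.920 ± 0.380 at 2500 ppm. The doses differ between compounds, so these values are set side by side only.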

How the data were processed

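Testis RNA was hybridised to Affymetrix Rat Genome 230 2.0 arrays, 1 per animal, from cRNA copied with an oligo-dT primer, per the labels' protocols. The authors deposited 1 score for each probe set, log-like and of unknown base. No source used here states the probe summary, background correction or normalization behind it. Array spreads of the deposited scores differed (SD 0.669 to 0.934 over Control), so arrays were quantile normalized. Of 31099 probe sets, 57 controls were left out and 31042 tested in R 4.3.3 with limma 3.58.1 (lmFit, eBayes), by 1 model with a mean for each of 7 groups over 31 arrays, Benjamini-Hochberg adjusted, threshold 0.05. The number of arrays limits the precision: the median SE of a difference was 0.0348. GEO's platform annotation, which can be old, gave 20826 probe sets 1 symbol, 436 several and 9780 none, 14217 genes in all. Lists used the probe set of highest mean per gene and got no test; 1 further list is not reported here.

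Members and gene lists were chosen with earlier results of these data known. Genes named were those past the threshold, the 15 of smallest p in each direction, list members of smallest p or without overlap, and a set of genes always taken; list members outside that rule (Col16a1, Col5a2, Col5a3, Pdgfra, Fap, Thy1, Mrc1, Csf1r, Cd163, RT1-Bb, Cyp1a1, Cyp3a23-3a1) were chosen after their values were seen. The alternatives were other scalings, array weights, covariates, blocks, a level filter and arrays left out in turn. Counts without overlap were repeated without Control replicates 02 and 06, an alternative chosen after seeing the data, as was the animal series block against T500. The model was tested on simulated data.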

Additional observations from a re-analysis of the deposited data

Results flagged for a closer look

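Among the 190 groups of values examined for the named genes, 19 held 1 array far from the rest of its group by Dixon's criterion, where chance would give about 1 in 20. Control replicates 02 and 06, the arrays of large actin gap, accounted for 5 and 8 of them. In Control replicate 02, Col6a3 measured 0.277, Gata1 0.163, Gzmb -0.315, H1f2 0.509 and Perp 0.0420, each above the other Control arrays. In Control replicate 06, Hibadh was the highest at 1.95, and C1qa (-0.0192), Etfb (0.327), Prm2 (3.41), S100a10 (0.134), Sdhc (0.934), Tagln (0.114) and Tspo (0.485) were the lowest. T1800 replicate 05 was the lowest of its group for C1qa (0.194), Lyz2 (1.005), Star (0.580) and Tp63 (-0.474). T1800 replicate 03 was the lowest for Atp5po (1.97) and the highest for Cyp26b1 (1.19).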

How the results depend on the processing

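The directions of Arhgef28 and S100b held under all 23 alternatives, with differences of 0.37 to 0.52 and 0.22 to 0.28, but their calls did not. The count of higher calls, 2, was 0 with the scores as deposited, 1 with median and spread scaling (S100b), 1 with only the 2 groups compared (Dcn), 208 with array weights, 0 with the actin gap as covariate, 0 in the later animal series alone, 0 when arrays with an actin gap over 1.4 were left out and 0 without Control replicates 02 and 06. With the animal series block it was 2, but the genes were S100b and Cyp2g1, and without T1800 replicate 05 they were S100b and Acvr1. Leaving out 1 array gave 0 to 4 higher calls: 0 without Control replicates 02, 04, 05 or 06 or T1800 replicates 02 or 04, and 4 without Control replicate 03 or T1800 replicate 03. The count of lower calls, 0, was 56 with array weights and 0 to 2 with 1 array left out (1 without Control replicate 03, 2 without Control replicate 07, both Acsl1, and 1 without T1800 replicate 05, Macroh2a2). Against T500 the higher count, 1, was 0 with the scores as deposited, with median and spread scaling and with only the 2 groups compared, 25 with array weights, 2 with the actin gap as covariate (Arhgef28 and Chd6), 0 with the animal series block (added after seeing the data) and 0 to 2 with 1 array left out (0 without any T500 array or T1800 replicates 02 or 04, and without T1800 replicate 05 the 1 call was Acvr1); the lower count, 0, was 11 with array weights. The causes were not tested.

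With a replicate block, T1800 against Control gave 0 higher calls and 1 lower, Acsl1, and T1800 against T500 gave 0 higher. The replicate numbers did not pair the arrays: deviations of arrays of the same number correlated at -0.064, -0.34, 0.039 and 0.25.

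Other scalings moved the share of genes that were higher from 49.0% to 34.9% (as deposited) and 42.6% (median and spread). In that order they turned Atp5f1c (to -0.093 and -0.10), H2az1 (-0.099 and -0.11), Hsd3b1 (-0.081 and -0.080), Muc1 (-0.021 and -0.018), Prm2 (-0.18 and -0.20) and Sod1 (-0.021 and -0.031). Other turns were of Cyp11a1, Lhcgr, Cyp51, Por, Star and Hsd3b1, not all of them near 0 in the main fit. Cyp11a1 was 0.031 with array weights, 0.012 without Control replicates 02 and 06 or without the arrays of large gap and 0.012 without Control replicate 02. Lhcgr was 0.012 with array weights, 0.012 with the actin gap as covariate, 0.017 without the arrays of large gap or without those 2 Control arrays and 0.0017 without T1800 replicate 05. With the actin gap as covariate Cyp51, -0.14 in the main fit, turned to 0.031, and Star, higher in the main fit, to -0.00022. Por was -0.0094 with the covariate and -0.011 without the arrays of large gap or those 2 Control arrays. Hsd3b1 was -0.0024 with the replicate block. With 1 array left out, Hsd3b1 ran from -0.049 to 0.093 and Cyp11a1 from -0.13 to 0.089. Of 720 list medians under the alternatives, 45 moved by more than the spread of the list's level between arrays.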
